A study of Drosophila melanogaster with 12 samples.

Results

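The cuticle protein genes described here are those whose symbol begins with Cpr, Lcp, Ccp or Twdl and goes on with the digits or letters of that family. The rule used names and no measured value. It found 87 genes among the 10844 that had a probe set of their own on the array: 58 Cpr, 20 Twdl, 5 Lcp and 4 Ccp genes. Where a gene had more than 1 probe set, the one with the highest mean stood for it. RNA came from pooled adult heads of cn bw flies, which carry the eye colour mutations cinnabar and brown in all samples. After entrainment to 12 hours of light and 12 hours of dark, heads were taken every 4 hours through a light/dark day (6 arrays named by the hours since lights on, from ZT4 to ZT24) and then through a day of constant darkness (6 arrays, CT4 to CT24). The sex and age of the flies are not given in the sources used here. Each time point had 1 array, and nothing in the labels says whether time points came from separate cultures, so a p-value here rests only on how far arrays scatter about a fitted curve. The dark day followed the light/dark day, and so the effect of light and that of elapsed time cannot be told apart.

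Insect cuticle is a layered material of chitin fibres and structural proteins, secreted by the epidermis below it. Most of its proteins, including the Cpr, Lcp and Ccp families, carry the Rebers-Riddiford consensus, a stretch that binds chitin, while the Tweedle (Twdl) proteins form a family of their own, first known from a mutant with a short, squat body. The head also bears the corneal lenses of the compound eye, a cuticle in which the Cpr proteins Cpr72Ec and Cpr66D lie beside the non-Cpr proteins crystallin and retinin. In many insects the endocuticle of the young adult is laid down in daily layers, which makes the hour of the day a natural question for these genes.

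All values are the deposited RMA values on the log2 scale. RMA corrects background, scales the arrays to each other and gives 1 value per probe set and array. The value of a probe set depends on how well its probes bind, so levels of different genes are not set against each other as amounts of RNA. In whole heads, fewer cells of a type and less RNA per cell cannot be told apart.

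A mean signal above a reference drawn from genes used by few head cells was seen for 41 of the 87 members, among them all 4 Ccp genes. The reference was the 95th percentile of the means of 80 odorant and gustatory receptor genes, a log2 value of 5.82, since the deposited values carry no detection call. Of all genes 29.5% lay above it. By family, 26 of 58 Cpr genes, 9 of 20 Twdl genes and 2 of 5 Lcp genes lay above it. Of the genes nearest to the reference, TwdlT lay just above, with a mean of 5.83, and Cpr12A just below, at 5.82. A signal above the reference does not show by itself that the gene's own RNA was bound, because some members share stretches of sequence with their relatives. Of 6 measured testis and accessory gland genes, 2 also lay above the reference, Mst87F at 6.20 and Mst84Dc at 6.05. The 95th percentile of these 6 genes was 6.16, and 36 members lay above that value.

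Members of several chromosomal clusters, which bear the same cytological number and letter in their names, did not behave alike. All 4 measured genes of cluster 64A (Cpr64Aa to Cpr64Ad) and all 4 of cluster 84A (the Ccp genes) were above the reference. In cluster 47E the count was 2 of 7, in 49A 1 of 6, in 65A 2 of 5 and in 65E 0 of 3. The larval cuticle genes Lcp65Aa and Lcp65Ac were above it, at means of 6.58 and 6.33, and Lcp65Ad, Lcp65Af and Lcp9 were not.

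For 6 members a second probe set was on the array, and it was lower in all 6 by construction of the rule. The gap was wide for TwdlM, at a mean of 9.54 against 4.29, and for TwdlJ, at 8.45 against 3.11. For Cpr66D, the lens protein gene, it was 6.50 against 3.98, for Cpr73D 6.97 against 5.25, for TwdlN 5.89 against 4.43, and for TwdlT 5.83 against 4.50. In TwdlM, TwdlJ, TwdlN, Cpr66D, Cpr73D and TwdlT the second probe set was below the reference, so whether these genes stand above it depends on the probe set taken.

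Over the 12 arrays the signal of most members varied little. Of the 87 members 41 lay above the low-signal reference. Whether a small range in the others meant steady RNA was not tested. The distance from the lowest to the highest array had a median of 0.44 on the log2 scale over the members and 0.50 over all genes. It passed 0.5 in 31 of 87 members (35.6%, against 49.2% of all genes) and 1 in 11 of 87 (12.6%, against 12.4%). Of these 11, 10 were Cpr genes and 1 was Ccp84Ad, and no Twdl or Lcp gene was among them. The narrowest range belonged to Cpr64Ac, whose 12 values spanned 0.20, and Cpr66D spanned 0.22. The widest was that of Cpr62Bc, at 2.31.

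**Figure D1:**
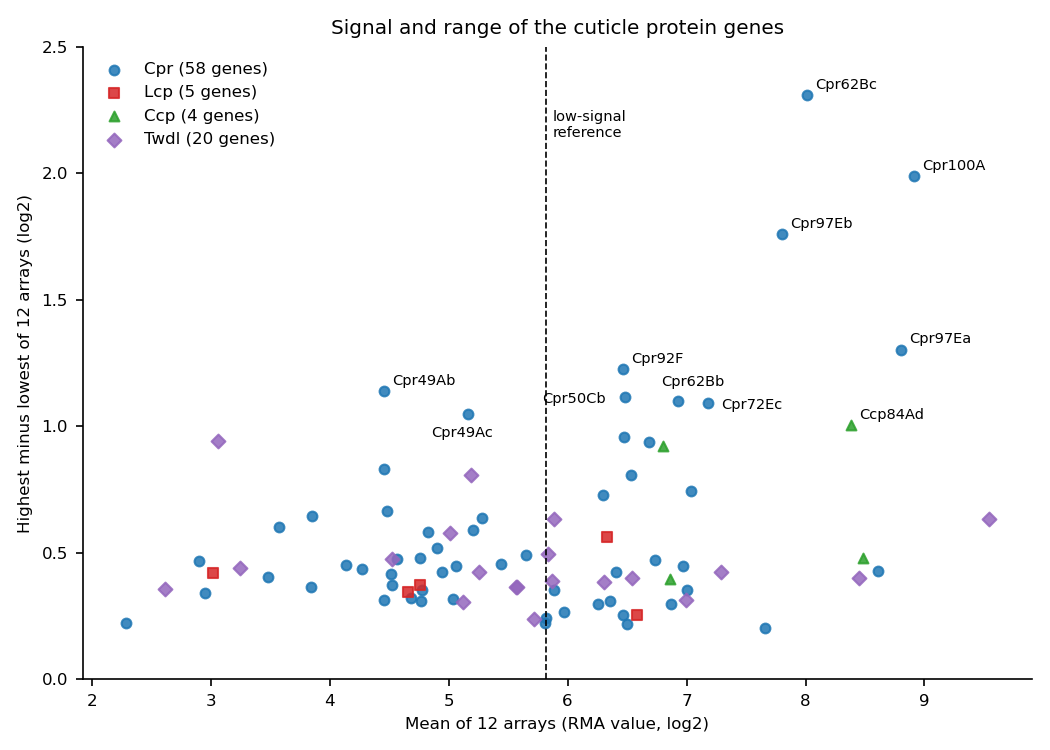
Mean signal of each of the 87 members over the 12 arrays (horizontal axis, log2) against the distance from its lowest to its highest array (vertical axis, log2), 1 point per gene, by family. The dashed line is the low-signal reference of 5.82, and the 11 named genes have a range over 1. The Twdl and Lcp genes lie below a range of 1, with the widest Twdl ranges in TwdlL (0.94) and TwdlK (0.81).

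Some arrays stood apart before any comparison of hours or days. Probe sets at the 3' and 5' ends of the control genes measure how completely RNA was kept and copied. Their difference, 3' minus 5', was largest in ZT24 (3.32), CT4 (2.88) and ZT16 (2.58) and lay between 1.49 and 2.13 elsewhere. In CT8 the gut markers had a median deviation of 0.54 from each gene's own mean, and the neuron markers one of -0.69. Among the gut markers LysS went the other way, with its lowest value of the 12 arrays in CT8 (8.29). Muscle markers (6 of 8 measured) had medians from -0.48 in CT4 to 0.43 in CT20. Photoreceptor markers (6 of 12 measured) had medians of -0.76 in ZT16 and -0.58 in ZT12, and up to 0.45 in CT12. For the head fat body markers (7 of 8 measured) the median was -0.53 in ZT16, where Fbp2 and apolpp were above their own means. Of the 4 measured epidermis markers, kkv, which encodes the chitin synthase of the epidermis, and vvl, a transcription factor gene, had means of 6.04 and 5.95, above the reference. The means of grh and sha were 3.19 and 3.37, below it. Between the mean of ZT16, ZT24 and CT4 and that of the other 9 arrays, kkv differed by -0.09, vvl by 0.23, sha by 0.00 and grh by 0.61. The values of kkv, vvl and sha overlapped between the 2 sets of arrays.

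The 4 Cpr genes Cpr100A, Cpr97Eb, Cpr62Bb and Cpr11B were lower in ZT16, ZT24 and CT4 than in each of the other 9 arrays. This was 4.6% of the members, against 6.38% of all genes. Cpr100A, which encodes a chitin-binding cuticle protein of the Cpr family, measured 9.81, 9.36, 8.60, 8.21, 9.48 and 8.21 from ZT4 to ZT24 and 7.82, 9.38, 8.86, 9.08, 9.40 and 8.76 from CT4 to CT24. The 3 arrays with the large 3' minus 5' signal held its 3 lowest values, with a mean 2.16-fold below that of the other 9. Cpr97Eb lay between 6.93 and 7.18 in those 3 arrays and between 7.64 and 8.69 in the other 9, a 1.98-fold difference of means. Its neighbour in name Cpr97Ea was low in ZT24 and CT4, at 8.05 and 8.26, but stood at 8.78 in ZT16, within the range of 8.31 to 9.36 of the other 9.

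Cpr62Bb lay between 6.25 and 6.51 in those 3 arrays and between 6.80 and 7.35 in the other 9. For Cpr11B the ranges were 6.20 to 6.25 and 6.38 to 7.01. In contrast, Ccp84Ag, Cpr49Ae and TwdlT were higher in the same 3 arrays than in all others, which was 3.45% of the members against 4.35% of all genes. Ccp84Ag was at 7.17 to 7.35 in them and at 6.43 to 6.95 elsewhere. The part of RNA quality in these levels was not tested. As a group the members' shares were not above those of all genes in either direction.

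**Figure D2:**
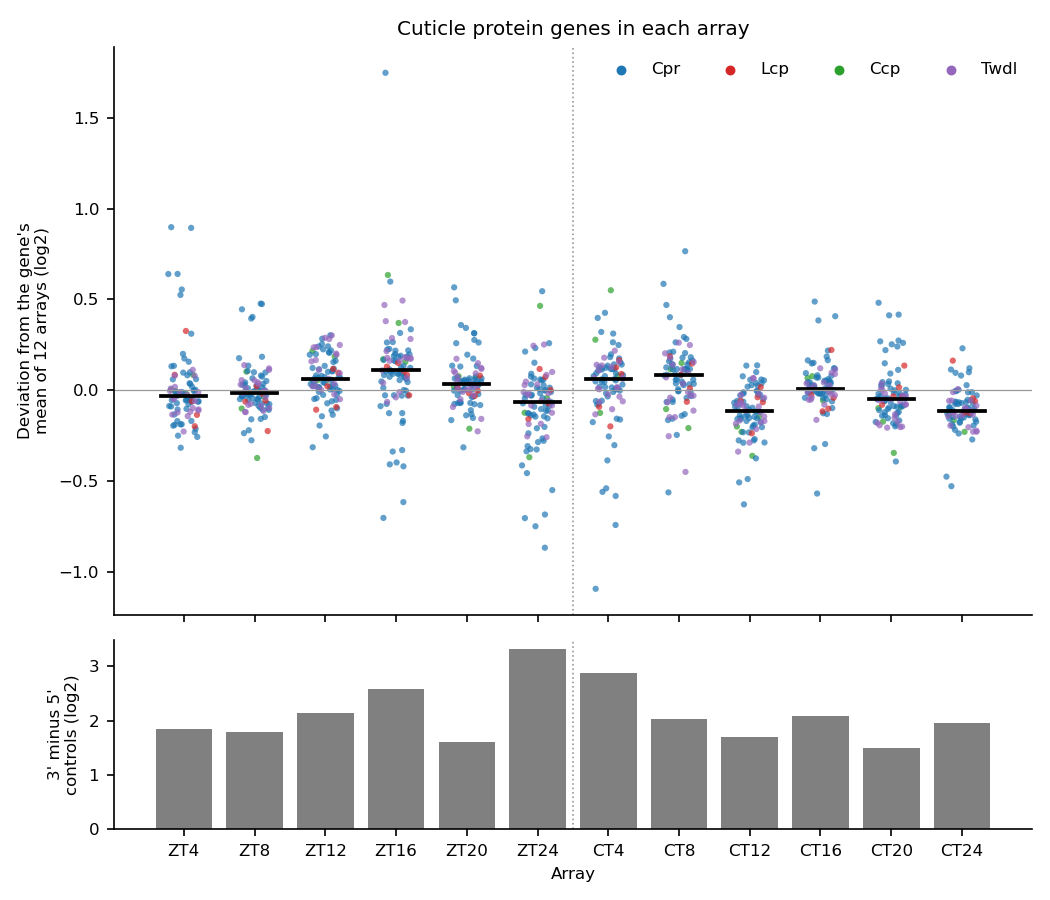
Upper plot: deviation of each of the 87 members from its own mean over the 12 arrays (log2), 1 point per gene and array, coloured by family, with a black bar at the median of the members. Lower plot: 3' minus 5' difference of the controls in the same arrays (log2). The dotted line parts the light/dark day from constant darkness. The single point at the top is Cpr62Bc in ZT16, and the lowest points lie in CT4, ZT24 and ZT16.

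The array in which a member was highest was ZT16 for 26 of 87 members (29.9%), against 15.3% of all genes. None was highest in CT12 (0 of 87, against 6.37% of all genes), and 17 members (19.5%) were lowest there, against 9.55% of all genes. The lowest array was ZT24 for 17 members (19.5%, against 13.9%) and CT24 for 15 (17.2%, against 11.4%). The highest was CT8 for 14 (16.1%, against 15.7%). The members' median deviation was 0.11 in ZT16 and -0.11 in CT12 and CT24. Cpr62Bc stood out in ZT16, at 9.76, where its other values in the light/dark day were 7.82, 7.78, 8.08, 8.27 and 7.56 and those from CT4 to CT24 were 8.41, 7.45, 7.51, 8.06, 7.98 and 7.48. Ccp84Ad was also highest in ZT16, at 9.02 against 8.02 to 8.50 in the others. Further members that were highest in ZT16 were TwdlM (9.92), TwdlN (6.26), TwdlK (5.66), TwdlL (3.55) and Cpr64Aa (8.83). The means of TwdlK and TwdlL were below the low-signal reference. Other probe sets of these genes differed. A second one of TwdlM was also highest in ZT16 (4.50), but that of TwdlN was at 4.28 there, against its mean of 4.43. A probe set shared by TwdlL and TwdlB was lowest in ZT16 (4.99). With 1 array at that hour, and the array being among the 3 with a large 3' minus 5' signal, an effect of the hour and an effect of the array cannot be told apart.

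The question set by the design is whether a transcript follows the day, and whether it goes on doing so without light. A 24-hour wave was fitted to both days together, with a step between the days. Its amplitude is the height of the peak over the mean of the curve. None of the 87 members passed an adjusted p of 0.05 in limma, where 0.00922% of all genes did. At an unadjusted p under 0.05 there were 5 members (5.75%), against 1.6% of all genes: Cpr72Ec, Cpr49Ac, Cpr50Cb, Cpr92F and TwdlG. Their adjusted p in limma was 0.99999 each, so none of these curves is a call. Over the members the median amplitude was 0.07, as it was over all genes.

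The lens protein gene Cpr72Ec had the smallest p of the members. It measured 7.71, 7.58, 7.04, 6.84, 6.87 and 7.25 from ZT4 to ZT24 and 7.26, 7.44, 7.32, 6.61, 7.08 and 7.18 from CT4 to CT24. It was lowest at hour 16 in both days and highest at hour 4 in light/dark and hour 8 in darkness. The wave peaked at 5.5 ± 0.7 hours with an amplitude of 0.38 ± 0.07 (SE, n = 12; unadjusted p = 6.02e-04 in limma), which makes the peak 1.68-fold higher than the trough. With a curve for each day, the light/dark day gave 0.46 ± 0.10, peaking at 5.2 hours, and the dark day 0.29 ± 0.10, peaking at 6.0 hours. Errors of these curves rest on the spread of all 12 arrays. The 2 curves were not shown to differ (size of the difference 0.19 ± 0.14, unadjusted p = 0.429 in limma). Without CT16 the amplitude in darkness was 0.16. With 1 array left out, the unadjusted p of the curve in darkness was under 0.05 in 3 of 12 fits (limma, highest 0.138).

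The other lens proteins had no such course. Cpr66D lay between 6.38 and 6.60 in all 12 arrays, with an amplitude of 0.03 ± 0.04. Its second probe set had a mean of 3.98, below the low-signal reference, and a correlation of 0.09 with the first over the 12 arrays. Whether the steady signal is that of the gene's own RNA was not tested. Retinin, a lens protein outside the Cpr family, lay between 11.13 (ZT16) and 11.66 (CT16), with an amplitude of 0.04 ± 0.06. Crystallin had no probe set of its own among the named ones and was not analysed here.

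Cpr49Ac, whose protein belongs to the same Cpr family, had a peak close to that of Cpr72Ec. Its values were 5.81, 5.30, 5.18, 4.76, 5.10 and 5.14 in the light/dark day and 5.21, 5.28, 5.15, 4.85, 5.12 and 5.10 in darkness. As in Cpr72Ec the lowest value fell at hour 16 in both days, and the ZT4 value stood above all the others. The amplitude was 0.27 ± 0.07 with a peak at 5.0 ± 1.0 hours (unadjusted p = 0.0109 in limma). Without ZT4 it was 0.19. The curve of the light/dark day had 0.38 ± 0.10, and that of the dark day 0.15 ± 0.10 (unadjusted p = 0.333 in limma), so a curve in darkness was not shown. The mean of Cpr49Ac, 5.17, was below the low-signal reference.

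Cpr50Cb was highest at ZT4 (7.12) in light/dark and at CT8 (7.07), the array with displaced medians of the gut and neuron markers, in darkness. It was lowest at hour 24 in both days, with 6.07 and 6.01. The remaining light/dark values, from ZT8 to ZT20, were 6.66, 6.68, 6.40 and 6.32. In darkness CT4 was at 6.31, and CT12 to CT20 lay between 6.31 and 6.44. The amplitude was 0.32 ± 0.10 with a peak at 8.7 ± 1.2 hours. Without CT8 the amplitude was 0.24 and the unadjusted p 0.120 in limma (n = 11).

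Cpr92F ran the other way, with its highest value at hour 16 in both days. It measured 6.21, 6.24, 6.27, 7.06, 6.82 and 6.44 from ZT4 to ZT24 and 5.90, 6.67, 5.83, 6.95, 6.68 and 6.46 from CT4 to CT24. The night values at hours 16 and 20 were above the other values of the same day, with CT8 (6.67) just under CT20 (6.68). The amplitude was 0.36 ± 0.12 with a peak at 18.2 ± 1.3 hours. With 1 array left out it lay between 0.31 (without ZT16) and 0.49 (without CT8), and its unadjusted p in limma was under 0.05 in 5 of 12 such fits. TwdlG had a small curve, 0.13 ± 0.04 with a peak at 12.7 ± 1.3 hours, and was highest at hour 12 in both days (7.57 and 7.36). Its p was under 0.05 in 6 of 12 such fits.

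**Figure D3:**
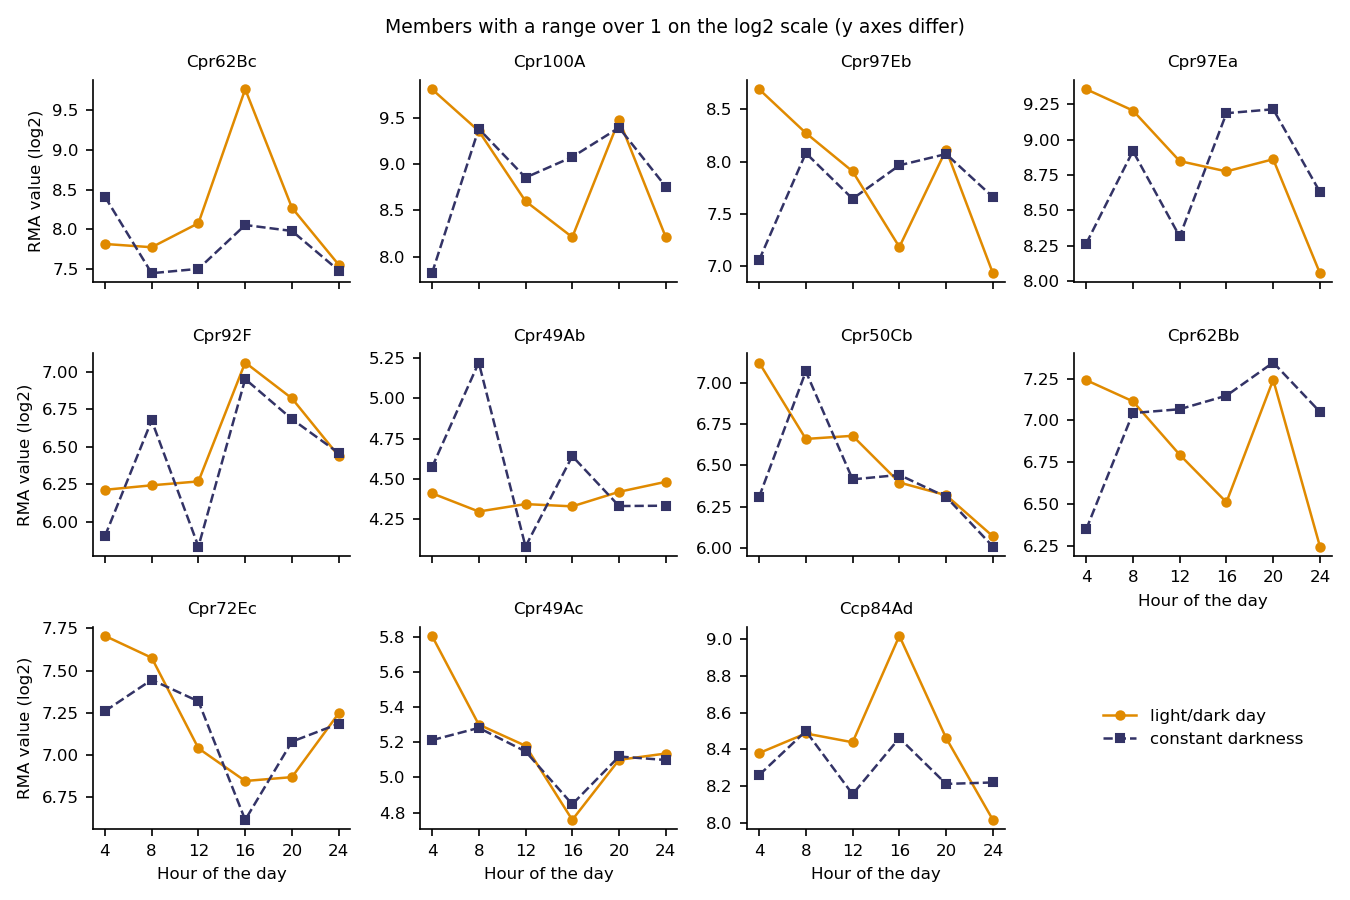
RMA values (log2) of the 11 members with a range over 1, against the hour of the day, with circles for the light/dark day and squares for constant darkness, 1 array per point. The vertical axes differ between genes. Cpr72Ec and Cpr49Ac are lowest at hour 16 in both days, Cpr92F is highest there in both, and Cpr62Bc is high at hour 16 of the light/dark day (9.76) but not of constant darkness (8.06).

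Over all 87 members, 15 were highest at the same hour in both days (17.2%, against 13% of all genes) and 17 were lowest at the same hour (19.5%, against 14.2%). Both held for 1 member (1.15%, against 2.01% of all genes), Cpr47Ee, named here after its values were seen. The fitted peaks lay in the second 12 hours of the day for 48 members and in the first 12 for 39, that is 55.2% of the members in the second, against 52.8% of all genes.

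**Figure D4:**
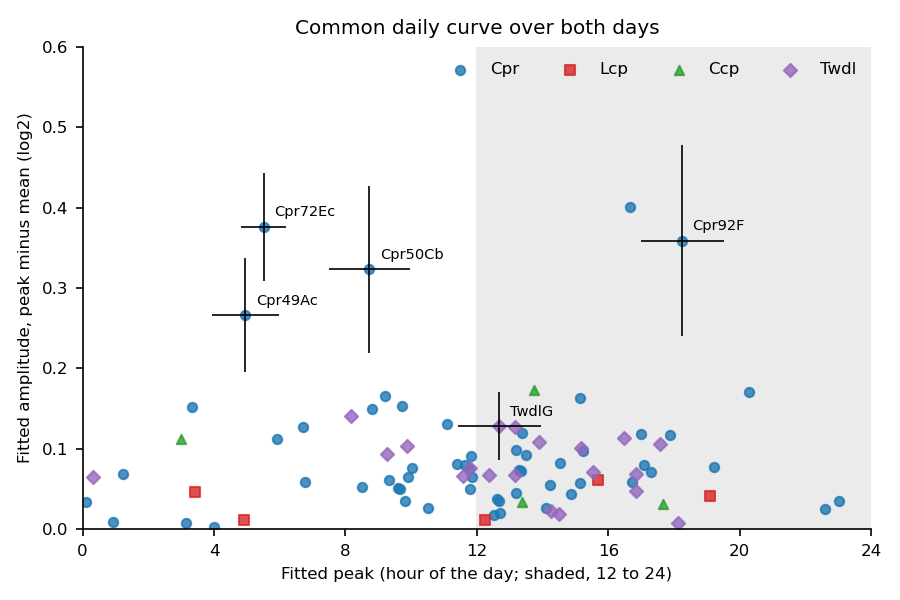
Fitted peak (hour of the day) against fitted amplitude (log2) of the curve common to both days, 1 point per member, by family. Bars are standard errors and are drawn for the 5 named genes with an unadjusted p under 0.05. Cpr72Ec, Cpr49Ac and Cpr50Cb peak between hours 4 and 12, and Cpr92F at 18.2 hours. The unnamed point near 16.7 hours is Cpr62Bc, with an amplitude of 0.40 ± 0.21.

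Within the light/dark day alone, no member passed (limma, smallest adjusted p of a member 0.994; no gene was called, 0%). At an unadjusted p under 0.05 there were 8 members (9.2%), against 3.5% of all genes: Cpr72Ec, Cpr49Ac, Cpr11B, Cpr62Bc, TwdlG, TwdlK, TwdlN and Twdlalpha. Of these Cpr62Bc, TwdlK, TwdlN and Twdlalpha were highest in ZT16. The amplitude of Cpr62Bc was 0.82 ± 0.27 with a peak at 16 hours, and 0.33 when ZT16 was left out. That of TwdlN was 0.23 ± 0.08, and 0.13 without ZT16. Its second probe set gave 0.07 ± 0.11. Without ZT16 the number of members under 0.05 was 2 (2.3%, against 1.83% of all genes).

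In constant darkness Cpr72Ec was the only member with an unadjusted p under 0.05 (0.042 in limma). That was 1.15% of the members, against 1.59% of all genes. It stayed under 0.05 in 3 of 12 fits with 1 array left out. No member passed with adjustment in limma, as no gene did (0%). For the difference of the curves between the days there was again 1 member under 0.05, TwdlK (1.15%, against 2.56% of all genes), with a size of 0.36 ± 0.12, a light/dark peak at 15.7 hours and a peak in darkness at 3.8 hours. It did not pass (adjusted p = 0.986 in limma), and of all genes 0.00922% did. The highest array of TwdlK was ZT16 (5.66) in light/dark and CT4 (5.33) in darkness. Both arrays had a large 3' minus 5' signal, whose part was not tested. Without CT4 the size was 0.26, and the unadjusted p in limma was under 0.05 in 4 of 12 fits with 1 array left out. The mean of TwdlK was below the low-signal reference.

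Mean levels of the 2 days were not shown to differ for any member. In limma none passed (smallest adjusted p of a member 0.930; of all genes 0%). At an unadjusted p under 0.05 there were 2 members, both lower in darkness (2.3% of the members, against 2.12% of all genes in that direction), and none higher (0%, against 1.72%). Cpr23B measured 4.86 ± 0.13 (SD, n = 6 arrays) in light/dark and 4.66 ± 0.11 in darkness, a difference of -0.20 ± 0.07 (SE). It was below the low-signal reference. Lcp65Ac, which encodes a larval cuticle protein, measured 6.44 ± 0.13 and 6.23 ± 0.12, a difference of -0.21 ± 0.08. Its light/dark values ran from 6.32 to 6.66 and its values in darkness from 6.10 to 6.42, so the days overlapped.

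In no member were all 6 arrays of a day above all 6 of the other, which held for 0.148% of all genes on the side lower in darkness and for 0.0461% on the side higher. Cpr62Bc differed by -0.40 ± 0.30, with a median of 7.95 in light/dark and 7.74 in darkness. TwdlL differed by -0.27 ± 0.13 at a mean of 3.06, and TwdlK by -0.23 ± 0.11. On the other side Cpr67B differed by 0.21 ± 0.13, Cpr49Ab by 0.15 ± 0.15 and Cpr62Bb by 0.14 ± 0.21. The value of Cpr49Ab rested on CT8, at 5.22 against 4.08 to 4.64 in the other arrays. For Cpr100A the difference was -0.06 ± 0.35, the widest error of all members.

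By sign alone, 62 of 87 members were lower in darkness (71.3%, against 54% of all genes), and 25 were higher (28.7%, against 46%), with a median difference of -0.05 on the log2 scale, against -0.01 over all genes. By family these were 18 of 20 Twdl genes (median -0.08), all 4 Ccp genes (median -0.12), 38 of 58 Cpr genes (median -0.03) and 2 of 5 Lcp genes (median 0.03). The share was not stable against single arrays. It was 55.2% without CT12, against 51.6% of all genes, and 82.8% without CT8, against 55.5%. Without ZT16, ZT24, CT4 and CT8 together it was 89.7%, against 61% of all genes, with a median of -0.12, from the 4 arrays left in each day. Those were ZT4, ZT8, ZT12 and ZT20 in light/dark and CT12, CT16, CT20 and CT24 in darkness. The hours of the days were then not matched, and only the fitted curve allowed for this.

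**Figure D5:**
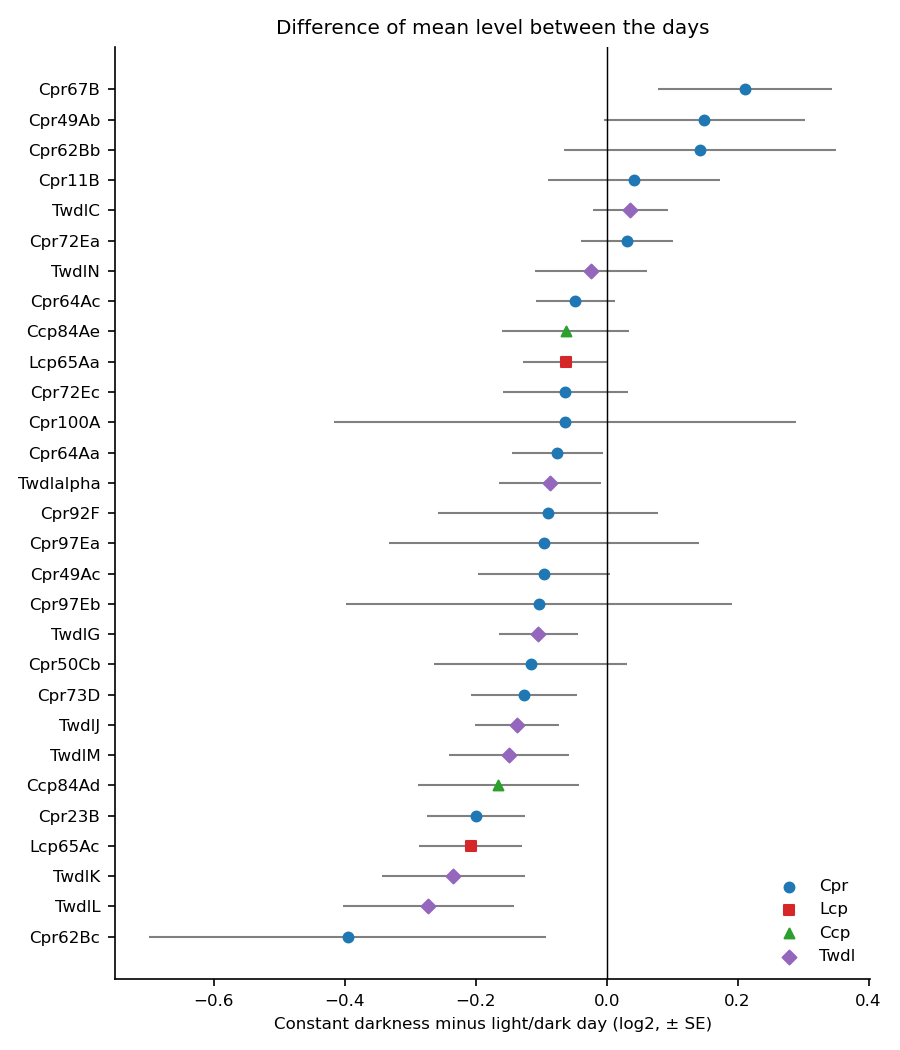
Difference of the mean level, constant darkness minus light/dark day (log2), with its standard error, for the 29 members named by rule, by family. Values right of 0 are higher in darkness. The errors of Cpr62Bc, Cpr100A, Cpr97Eb and Cpr97Ea are the widest, and none of the differences passed the adjusted threshold.

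The wider cuticle machinery was read from 3 further lists. Of 17 measured structural cuticle proteins outside the symbol rule, 5 were higher and 12 lower in darkness (70.6% lower, against 54% of all genes), with a median of -0.04. None passed in limma in any of the 5 tests. At an unadjusted p under 0.05, 4 were lower in darkness and 1, retinin, was higher (0.19 ± 0.08), that is 23.5% and 5.88% of the list, against 2.12% and 1.72% of all genes. Vajk2 and Vajk3, related genes of that list, had differences of -0.23 ± 0.10 and -0.40 ± 0.15. The fitted curve of Vajk3 peaked in the night, with an amplitude of 0.39 ± 0.11 at 16.5 hours (unadjusted p = 0.0122 in limma). Vajk3 was highest at hour 16 in both days (9.77 and 9.24), the hour at which Cpr92F was highest. Over the 12 arrays Vajk3 was highest in ZT16 and lowest in CT4 (8.09). Both arrays had a large 3' minus 5' signal, whose part was not tested. Acp1, an adult cuticle protein gene, was highest in ZT16 (12.83) and lowest in CT12 (11.52), with an amplitude of 0.17 ± 0.11.

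Of 23 measured genes of chitin synthesis and modification, 9 were higher and 14 lower in darkness (60.9% lower, against 54% of all genes), and none passed in limma. At an unadjusted p under 0.05, 3 were lower (13%, against 2.12% of all genes) and none higher (0%, against 1.72%). The chitin deacetylase gene verm differed by -0.36 ± 0.13. Cht5, a chitinase gene chosen after its values were seen, measured 8.76, 7.56, 7.13, 7.06, 6.79 and 7.66 from ZT4 to ZT24 and 7.49, 7.15, 7.06, 6.37, 6.76 and 6.35 from CT4 to CT24. It was highest at hour 4 in both days. The amplitude was 0.59 ± 0.15 with a peak at 5.3 hours (unadjusted p = 0.0082 in limma), beside 5.5 hours for Cpr72Ec and 5.0 hours for Cpr49Ac. Its difference of mean level was -0.63 ± 0.21. The chitinase-like growth factor gene Idgf4 differed by 0.34 ± 0.27 in the other direction.

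Of 22 measured genes of tanning and pigmentation, 10 were higher and 12 lower in darkness (54.5% lower, against 54% of all genes), and none passed in limma. At an unadjusted p under 0.05, 2 were higher and 2 lower (9.09% each, against 1.72% and 2.12% of all genes). The higher ones included t, which encodes the tan hydrolase that frees dopamine and histamine, at 1.08 ± 0.41. In the light/dark day ple, which encodes the tyrosine hydroxylase that starts dopamine synthesis, had 8.80 at ZT4 and 6.99 at ZT16, and e, which encodes the ebony protein that joins dopamine to beta-alanine, had 8.29 and 7.12. At the same hours in darkness ple was at 7.20 and 7.70 and e at 7.24 and 7.56. For both the difference of the curves between the days had an unadjusted p under 0.05 (0.0017 for ple and 0.0066 for e in limma) and an adjusted p above the threshold. Each gene was lowest at ZT16 in light/dark and at CT4 in darkness, where the 3' and 5' ends of the controls differed by 2.58 and 2.88. At ZT24, where they differed by 3.32, ple was at 8.1 and e at 7.8. What RNA quality contributed to the difference of the curves was not tested. In darkness Cpr72Ec and Cpr49Ac were lowest at CT16, and ple and e at CT4.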

How the data were processed

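The data were 12 Affymetrix arrays of biotin-labelled RNA from adult fly heads, 1 per time point. The authors deposited log2 values. RMA is the tool that the submitters' processing notes name, without a version. The log base is inferred from the range of 1.72 to 13.52. Names came from the platform annotation, updated through gene identifiers with a RefSeq table of the assembly Release 6 plus ISO1 MT. Of 13966 tested probe sets 12443 had 1 gene, 327 several and 1196 none here, and 12394 names were found in the newer table. The 44 control probe sets served for array quality only. Array medians lay between 4.81 and 4.88. The number of arrays limits the precision.

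Testing used limma 3.58.1 (lmFit, eBayes; R 4.3.3), with Benjamini-Hochberg adjustment over the 13966 probe sets. They used a cosine and sine common to both days beside a day step, or a cosine and sine for each day, with errors as standard errors. The script was tested on simulated data. The members, lists and tests were chosen with earlier results of these data known. Named members were the 16 with the highest mean above the reference, the highest of each family, those with an unadjusted p under 0.05 in any of the 5 tests, the 3 largest and 3 smallest day differences and the 4 widest ranges, 29 genes in all. From each further list up to 4 genes with the highest mean could be named, and others are said to be chosen later or stand as members of a count. The members Ccp84Ag, Cpr49Ae, TwdlT, Cpr12A and those named for a second probe set alone were named after their values were seen. Alternatives were a second quantile normalization, 16 added on the linear scale, a filter on low values, the 3' minus 5' signal as a covariate, the mean of a gene's probe sets, the hour as a block, and arrays left out. Family genes with no probe set of their own were not analysed here, apart from probe sets shared by several. Sequences of the proteins and promoters were not used here.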

Additional observations from a re-analysis of the deposited data

Results flagged for a closer look

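Each of the 29 named members was examined in each day for an array far from the other 5, in 58 groups of 6. Chance alone flags about 1 in 20 groups that were not chosen by their values. Some members were named for a wide range, a day difference or a small p, so that rate need not hold here. In 3 of the 58 groups, close to that rate, the gap to the nearest array was a large part of the whole range. Cpr62Bc stood at 9.76 in ZT16, 1.49 above the next array of the light/dark day. Cpr62Bb stood at 6.35 in CT4, 0.70 below the next array of constant darkness. TwdlC stood at 6.81 in ZT24, 0.16 below the next. All 3 values come from arrays with a 3' minus 5' control signal of 2.58 or more, whose part was not tested.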

How the results depend on the processing

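No member passed an adjusted p of 0.05 in any of the 5 tests under any alternative. With the hour as a block, 62 members were lower in darkness and 3 had an unadjusted p under 0.05 for the mean level, and no call changed. Counts of members with an unadjusted p under 0.05 moved by more than 1.5 times as follows, with the share of all genes under the same setting in parentheses. The filter left 59 members. For the mean level, 2 members (3.85%) became 6 with a second quantile normalization (3.75%), 8 with 16 added (4.15%), 1 with the filter (4%), 4 with the covariate (4.95%) and 9 without ZT16, ZT24, CT4 and CT8 (9.18%). For the common curve, 5 (1.6%) became 8 with the covariate (5.96%) and 10 without the 4 arrays (7.63%). For the light/dark day, 8 (3.5%) became 5 with the filter (3.82%). For darkness, 1 (1.59%) became 2 with 16 added (1.92%) or the covariate (3.4%) and 5 without the 4 arrays (3.31%). For the difference of curves, 1 (2.56%) became 3 with 16 added (3.38%) or without the 4 arrays (2.68%), 2 with the covariate (4.32%) and 0 with the filter (2.72%). The members' median difference between the days was -0.12 without the 4 arrays, where the hours of the days were no longer matched. Leaving out each array in turn gave 3 to 11 members for the common curve (0.931% to 5.07% of all genes), 2 to 11 for the light/dark day (1.83% to 8.19%), 0 to 6 for darkness (0.867% to 6.85%), 0 to 9 for the difference of curves (1.5% to 7.28%) and 1 to 13 for the mean level (1.98% to 13.6%). The most members came without CT12 (common curve, 12.6% of members against 5.07% of all genes, and darkness, 6.9% against 6.85%), ZT20 (light/dark day, 12.6% against 8.19%, and difference of curves, 10.3% against 7.28%) and CT4 (mean level, 14.9% against 13.6%). The members lower in darkness ranged from 48 to 72, and the median from -0.06 to -0.02. The cause was not tested. The amplitude of Cpr72Ec over both days stayed between 0.33 and 0.43 with any array left out. With the reference set at the median of all genes 58 members were above it, and with testis and accessory gland genes 36. With 1 array per hour, the median standard error of a member's day difference was 0.08, and differences of that order were not detectable.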

Other observations

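Some family genes were measured only together with a close relative, on probe sets that the annotation gives to several genes. The probe set shared by Ccp84Aa and Ccp84Ab had a wider range than any of the 87 members. It measured 6.29, 6.47, 5.84, 7.71, 6.19 and 3.96 from ZT4 to ZT24 and 4.56, 5.30, 5.0, 5.86, 5.58 and 4.97 from CT4 to CT24. Its highest array was ZT16, as for Cpr62Bc and Ccp84Ad, and its lowest were ZT24 and CT4. The mean was 6.08 in light/dark and 5.21 in darkness, a difference of -0.86 ± 0.42 (SE, unadjusted p = 0.0631 in limma, n = 12). The signals of the 2 genes cannot be told apart on this probe set.

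The probe set shared by Lcp65Ag1, Lcp65Ag2 and Lcp65Ag3 lay between 5.10 and 5.66. It was low at hours 4 and 20 of the light/dark day (5.10 and 5.11) and high from CT4 to CT12 (5.63 to 5.66), and its common curve had an unadjusted p of 0.0081 in limma. Another probe set, given to Lcp65Ag1 and Lcp65Ag2 only, stayed between 2.02 and 2.29. The probe set of Cpr65Av and Cpr65Aw lay between 6.15 and 6.56, above the low-signal reference, and that of Cpr67Fa1 and Cpr67Fa2 between 4.44 and 4.95, below it.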
